A study of Mus musculus with 58 samples.

Results

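Lungs of mice given the highest dose of benz(a)anthracene (BaA), 80 mg/kg-bw/day, were compared with lungs of vehicle controls. The samples were chosen by their titles, 5 lungs of the group D3 and 5 of the group D0, which are 10 of the 58 arrays of the series. Adult male Muta™Mouse, aged 10 weeks, were gavaged daily for 28 days, D0 with olive oil only and D3 with BaA in olive oil, and the lungs were taken 72 h after the final dose. The groups D1 (20 mg/kg-bw/day) and D2 (40 mg/kg-bw/day), with 5 lungs each, entered the same model. All animals carried the lacZ transgene of the Muta™Mouse strain, which serves to score mutations and has no role in the expression measurement. Each array held the RNA of a random section of the lung of 1 mouse, labelled with Cy5, beside a reference RNA pooled from 11 mouse cell lines and labelled with Cy3. A level is therefore the log2 ratio of lung to reference RNA, and is comparable between mice for a gene but not between genes.

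BaA is a polycyclic aromatic hydrocarbon that binds the aryl hydrocarbon receptor (AhR), a transcription factor that switches on Cyp1 enzymes, and its oxidised metabolites can damage DNA. Cells meet damaged or unfolded proteins by releasing heat shock factor Hsf1, which drives the genes of the Hsp70, Hsp110, Hsp40 and Hsp90 chaperones. The lung also keeps a circadian clock, in which Clock and Arntl activate the Per, Nr1d and PAR bZIP genes (Dbp, Tef and Hlf), and Nfil3 acts on the same promoter elements as Dbp with the opposite sign. Many genes of pre-mRNA splicing, among them the Clk kinases and the SR proteins, have transcripts that wait in the nucleus with introns still in place.

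Surfactant protein C (Sftpc), made by type II alveolar cells, stood between 7.24 and 7.73 on the log2 scale in all 10 lungs. Some lungs also read high for markers of other tissues, the source of which was not tested. Skeletal muscle markers (5 of 9 tested) averaged 5.47 in D0 mouse 5 and 1.42 in D3 mouse 16, against -1.16 to -0.68 in the other 8 lungs. Thymocyte markers (3 of 6 tested) averaged 1.64 in D3 mouse 17 and -0.66 to -0.51 in the others, and Dntt, the polymerase of developing lymphocytes, read 3.95 there and -1.41 to -1.05 elsewhere. Heart muscle markers ranged from 0.54 to 3.70 in D0 and from -0.07 to 3.41 in D3. D0 mouse 5 correlated least with its group (mean r = 0.899 across probes, against 0.936 to 0.946 for the other D0 lungs), and D3 mouse 19 read high for several nuclear transcripts, as given below. Every D0 array lay in the first column of its slide and every D3 array in the last, so dose and slide position cannot be told apart.

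In the comparison of D3 with D0, 330 of 14532 genes changed (2.27%; 1 probe per gene, false discovery rate-adjusted p of at most 0.05 and at least 1.5-fold). Of these, 262 rose (1.80%) and 68 fell (0.468%). Over probes, 400 rose (1.32%) and 172 fell (0.566%) of 30399 tested. The largest decreases were in the chaperone Hspa1a (7.72-fold) and, with overlapping groups, the small nucleolar RNA Rnu3b1 (7.33-fold), followed by the chaperone Dnaja1 (3.34-fold). The largest increases were in the clock output gene Dbp (3.45-fold), the nuclear long RNA Neat1 (3.03-fold) and the splicing factor Srsf5 (2.88-fold). The middle of the distribution was close to 0, with a median log2 difference of 0.04 and quartiles of -0.09 and 0.18. In 982 genes (6.76%) all 5 D3 lungs lay above all D0 lungs, and in 317 genes (2.18%) all lay below.

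Of the 64 chaperone and heat shock genes tested in 4 lists, 8 fell at D3 and 0 rose, against 0.468% of all genes that fell. Differences that were positive, none past the threshold, numbered 1 of 11 among the Hsp70 and Hsp110 chaperones, 2 of 14 among the Hsp40 co-chaperones, 2 of 22 in the Hsp90 list and 4 of 17 among the small heat shock proteins and regulators. Among Hsp70 and Hsp110 chaperones 3 of 11 fell (median log2 difference of the list -0.23), among Hsp40 co-chaperones 2 of 14 (-0.26), among Hsp90, its co-chaperones and the chaperonins 2 of 22 (-0.26), and among small heat shock proteins and regulators 1 of 17 (-0.11). The median over all genes was 0.04, and 8435 of 14532 differences were positive. The plot of pathway genes shows these lists beside the others.

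The promoters of 3 of the genes that fell are shown because each holds the core of a heat shock element, the sequence that Hsf1 binds. They are the 250 bases before a RefSeq start (assembly GRCm38.p6), 5′ to 3′ on the strand of the gene, with the core in capitals. Hspa1a lies at chr17:34972157-34972406 on the minus strand, Dnaja1 (the most upstream of its starts) at chr4:40722218-40722467 on the plus strand, and Hsph1 (likewise) at chr5:149636337-149636586 on the minus strand.
Hspa1a: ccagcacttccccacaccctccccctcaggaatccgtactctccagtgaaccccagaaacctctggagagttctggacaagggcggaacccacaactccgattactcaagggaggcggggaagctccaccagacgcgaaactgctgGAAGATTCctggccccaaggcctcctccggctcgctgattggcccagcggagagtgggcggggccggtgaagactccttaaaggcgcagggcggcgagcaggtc
Dnaja1: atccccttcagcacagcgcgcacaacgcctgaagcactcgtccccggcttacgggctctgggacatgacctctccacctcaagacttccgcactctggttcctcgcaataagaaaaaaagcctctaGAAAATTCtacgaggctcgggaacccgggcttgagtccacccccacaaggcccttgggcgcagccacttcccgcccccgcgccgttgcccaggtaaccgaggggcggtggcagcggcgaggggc
Hsph1: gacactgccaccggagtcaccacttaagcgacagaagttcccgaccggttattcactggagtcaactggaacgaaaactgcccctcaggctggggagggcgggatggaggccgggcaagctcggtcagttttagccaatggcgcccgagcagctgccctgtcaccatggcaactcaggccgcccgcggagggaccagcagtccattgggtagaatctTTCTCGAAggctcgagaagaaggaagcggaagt
The letters searched were GAANNTTC and TTCNNGAA on both strands. Of the 8 genes that fell, 7 had a promoter in the table, and 4 of them held the core (Dnaja1, Hspa1a, Hspd1 and Hsph1). Of the 56 tested heat shock genes that did not pass, 43 had a promoter and 10 held it. The 7 genes had 12 promoters between them, so a gene could match at several, while the share over all 32851 promoters of this length, 12.8%, is over single promoters. In either case a match of letters is a description only.

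Hspa1a encodes the stress-inducible Hsp70, which refolds damaged proteins. In D0 the log2 ratios were 3.75, 2.76, 3.00, 2.22 and 1.68 (mice 1 to 5), and in D3 -0.20, -0.17, -0.32, -0.30 and -0.35 (mice 16 to 20). All D3 lungs lay below all D0 lungs, and they lay close together (SD 0.08) where the D0 lungs were spread (SD 0.79). The log2 difference was -2.95 ± 0.31 (SE, n = 5 per group; adjusted p = 2.65e-05). Hspa1b, the near-identical neighbour of Hspa1a, could not be told apart from it here, so the value may hold both. The D1 lungs averaged 1.11 and the D2 lungs 0.05.

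Dnaja1, an Hsp40 that hands unfolded proteins to Hsp70, read 1.94, 1.43, 1.83, 1.40 and 1.01 in D0. In D3 it read -0.24, -0.20, -0.20, -0.20 and -0.25, again with no overlap. Its log2 difference was -1.74 ± 0.16 (SE; adjusted p = 4.77e-06), and a second, dimmer probe gave -0.80. Hsph1, an Hsp110 that reloads Hsp70, was 1.57, 0.81, 1.82, 1.45 and 0.95 in D0 and 0.16, 0.74, -0.01, -0.80 and -0.53 in D3. The groups were separated by little, since D3 mouse 17 came near D0 mouse 2. The difference was -1.41 ± 0.32 (adjusted p = 0.00943).

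Hspa8, the constitutive Hsp70, was 0.88 to 1.19 in D0 and -0.09 to 0.15 in D3. Its 3 probes gave log2 differences of -1.11 to -1.03. The reference channel of its brightest probe moved as well, by 0.48 in Cy3, and with Cy5 taken alone the difference was -0.48 (adjusted p = 0.0029), which is under the fold threshold. The part of the array position in this was not tested. Dnajb1, the Hsp40 that Hsf1 induces, ranged from 0.03 to 0.81 in D0 and from -0.45 to -0.23 in D3, a difference of -0.86 ± 0.13 (adjusted p = 0.00067). Chordc1, a partner of Hsp90, was 0.58 to 1.34 in D0 and -0.21 to 0.23 in D3 (-0.95 ± 0.12; adjusted p = 0.000165). Bag3, which couples Hsp70 to autophagy, fell by 0.63 on the log2 scale with no overlap of the groups. Hspd1, the mitochondrial chaperonin, fell by 0.59 with overlapping groups, and its call was lost without any of 5 single lungs.

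Other chaperones moved less. Hsp90aa1, the inducible Hsp90, had a log2 difference of -0.49 (adjusted p = 0.117) and Hsp90ab1, its constitutive form, -0.09. Of the chaperonin ring, Cct8 (-0.41), Cct6a (-0.35) and Cct5 (-0.30) passed the p threshold below the fold threshold. Hsf1 itself was at -0.11 (adjusted p = 0.615). Among 19 genes of endoplasmic reticulum chaperones and the unfolded protein response, Manf alone, a secreted stress protein, fell (by 0.62), where 0.468% of all genes fell. The list median was -0.23. Cacybp, an adaptor of ubiquitin ligases that is no member of these lists, fell by 0.99. The Hsp70 and Hsp40 lists still counted 3 and 2 calls when any 1 lung was dropped, while without D0 mouse 5 or D3 mouse 19 the Hsp90 list counted 1 and without D0 mouse 1 the list of small heat shock proteins counted 0. Manf lost its call without D0 mouse 3 or D3 mouse 19.

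**Figure D1:**
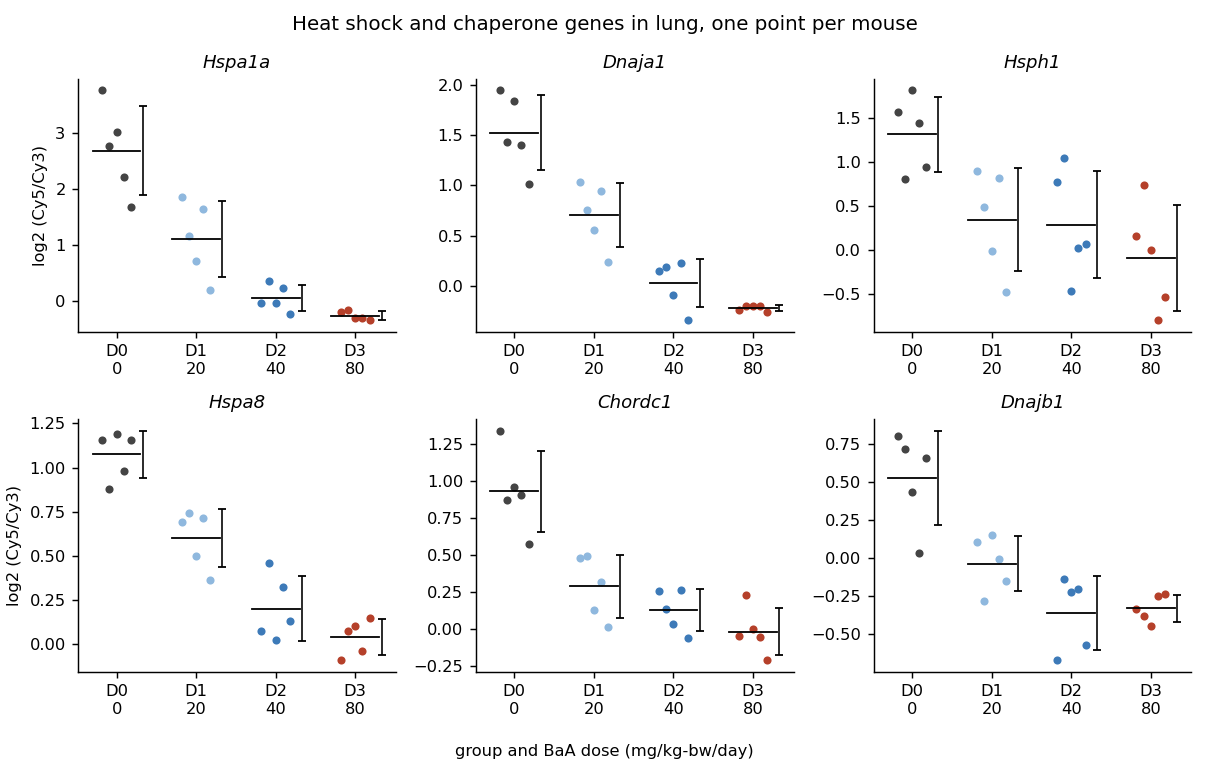
Log2 ratio of lung to reference RNA (vertical axes) in each of the 20 lungs, by group and BaA dose in mg/kg-bw/day. Points are mice, horizontal lines are group means and bars are 1 SD. The 5 D3 lungs lie below the 5 D0 lungs in every panel, and D2 stands beside D3 (Hspa1a means of 0.05 and -0.27).

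Of 12 clock repressors and output genes 6 rose and 0 fell, where 1.80% of all genes rose. All 12 differences were positive, with a median of 0.76, where 8435 of all 14532 genes had a positive difference. One of the 6, Ciart, was near background in D0, as given below. Of 6 activators and genes of opposite phase 2 fell, Nfil3 and Clock, where 0.468% of all genes fell. The list median was -0.51, but 2 of its 6 differences were positive. The hour at which each mouse was killed is not given in the sources used here.

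The promoters of Ciart and Per3 are shown because they hold the elements of the clock (RefSeq, GRCm38.p6, 250 bases before the start, both on the minus strand). That of Ciart lies at chr3:95882229-95882478 with its E-boxes in capitals, and that of Per3 at chr4:151044666-151044915 with its D-box cores in capitals.
Ciart: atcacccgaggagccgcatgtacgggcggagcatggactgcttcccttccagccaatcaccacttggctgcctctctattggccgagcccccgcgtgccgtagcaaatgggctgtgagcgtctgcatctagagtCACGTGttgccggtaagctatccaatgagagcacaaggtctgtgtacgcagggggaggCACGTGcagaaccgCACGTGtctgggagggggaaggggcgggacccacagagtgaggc
Per3: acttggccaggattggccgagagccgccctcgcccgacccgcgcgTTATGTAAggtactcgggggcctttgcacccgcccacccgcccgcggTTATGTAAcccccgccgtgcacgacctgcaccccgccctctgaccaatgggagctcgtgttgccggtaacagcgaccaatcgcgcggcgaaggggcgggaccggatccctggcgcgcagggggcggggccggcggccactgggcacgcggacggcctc
The E-box, CACGTG, is bound by Clock with Arntl, and the D-box core, searched as TTANNTAA on both strands, by Dbp and Nfil3. Of the 8 clock genes that changed, 7 had a promoter in the table. The E-box stood in those of Ciart and Tef, and the D-box core in those of Per3 and Tef. Of the 10 tested clock genes that did not pass, 7 had a promoter, and the E-box stood in those of 2 (Bhlhe41 and Per1) and the D-box core in 0. Over all single promoters the shares were 6.02% and 5.43%, whereas the 7 genes that changed had 10 promoters between them.

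Dbp, a PAR bZIP activator and a main output of the clock, read 0.48, 1.13, -0.68, 0.81 and -0.43 in D0 and 1.72, 2.11, 1.88, 1.85 and 2.68 in D3. Every D3 lung was above every D0 lung, and D0 mice 3 and 5 were the lowest. The log2 difference was 1.79 ± 0.34 (SE, n = 5 per group; adjusted p = 0.00298), with 1.80 at its second probe. Per3, a repressor of the clock, read 0.21, 0.24, -0.28, -0.01 and -0.12 in D0 and 0.77, 0.88, 0.65, 1.23 and 1.14 in D3. It differed by 0.93 ± 0.19 (adjusted p = 0.0048). Per2, of the same repressor family, differed by 0.89 (adjusted p = 0.0271) and Tef, of the same family as Dbp, by 0.86 (0.0206). Neither group overlapped the other in Per2 and Tef, but both calls were lost without D0 mouse 3 or D3 mouse 19, and that of Per2 also without D0 mouse 5 or D3 mouse 17.

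Ciart, a repressor of Clock and Arntl, differed by 0.86 with overlapping groups. Its signal stood clear of background on 1 of 5 D0 and 2 of 5 D1 arrays and on all 5 at D2 and at D3, so it was tested because of the groups in which it was high. With Agilent's processed signals the difference was 2.06, and the call was lost without any of 5 single lungs. Nr1d2, a nuclear receptor that represses Arntl, differed by 0.65 with overlapping groups. Hlf, the remaining PAR bZIP factor, was higher in all D3 lungs than in all D0 lungs (1.46 to 2.26 against -0.30 to 1.35), yet its adjusted p was 0.0643. Nr1d1 (0.30) and Per1 (0.43) did not pass, with adjusted p of 0.438 and 0.576.

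Nfil3 read -1.46, -1.95, -1.25, -1.71 and -1.48 in D0 and -2.42, -2.66, -2.46, -2.60 and -2.54 in D3, without overlap (-0.97 ± 0.15; adjusted p = 0.000809). Clock fell by 0.65 (adjusted p = 0.00592), also without overlap. Arntl, its partner, had a log2 difference of -1.02 with an adjusted p of 0.0503, just above the threshold, and groups that overlapped. D0 mouse 3, which was lowest for Dbp, was the highest for Arntl (0.74). Without D0 mouse 3 the calls among the repressors and outputs came to 2 of 12, without D3 mouse 19 to 3, without D3 mouse 17 to 4 and without D0 mouse 5 to 5.

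**Figure D2:**
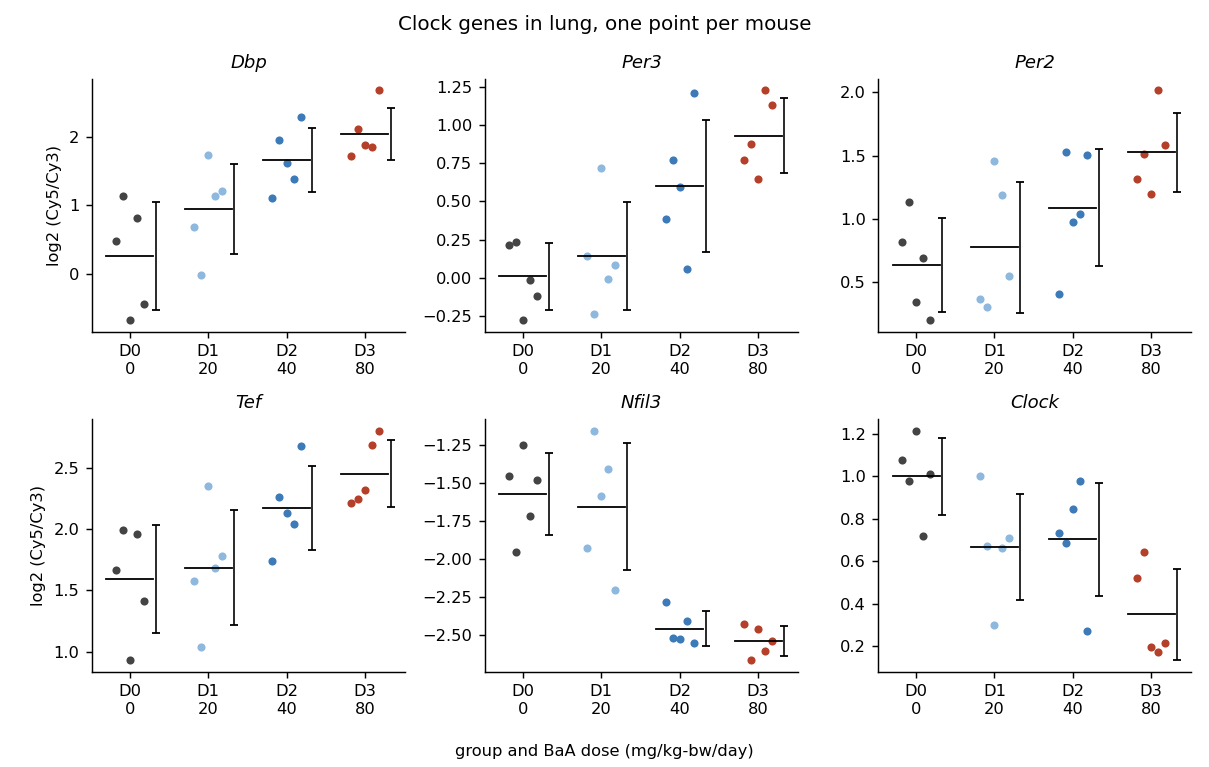
Log2 ratio of lung to reference RNA (vertical axes) for 6 clock genes in each of the 20 lungs, by group and BaA dose in mg/kg-bw/day, with group means (lines) and 1 SD (bars). Dbp, Per3, Per2 and Tef are higher at D3 than in every D0 lung, and Nfil3 and Clock lower. The D0 lungs are widely spread for Dbp, from -0.68 to 1.13.

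Genes of RNA processing formed the third group. Of 25 genes of the cyclin L, CLK and nuclear RNA processing list, 7 rose and 1 fell, against 1.80% and 0.468% of all genes. The list median was 0.29. Of 11 SR splicing factors Srsf5 alone rose, and the list median was -0.03. Of 2 cold-inducible RNA-binding proteins Cirbp passed, and of 5 nuclear long RNAs Neat1 rose and Kcnq1ot1 fell.

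Srsf5 encodes an SR protein that selects exons. It read -1.23, -1.26, -1.23, -0.96 and -1.38 in D0 and 0.17, 0.40, 0.45, 0.48 and 0.07 in D3. The gap between the groups was wider than the spread within either, and the log2 difference of 1.53 ± 0.13 had an adjusted p of 9.74e-07. Cirbp, an RNA-binding protein whose transcript increases when cells are cooled, read -0.53, -0.30, -0.63, -0.21 and -0.71 in D0 and 0.84, 0.89, 0.69, 1.00 and 0.65 in D3. It differed by 1.29 ± 0.15 (adjusted p = 4.75e-05). Rbm3 is its cold-inducible relative. The brightest probe of Rbm3 differed by 0.13 (adjusted p = 0.542), another by -0.16, and a dim probe by -0.59 (adjusted p = 0.0276), which is a decrease past both thresholds.

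Neat1 is the long RNA on which nuclear paraspeckles assemble. It read -1.21, -1.55, -1.58, -1.44 and -1.30 in D0 and -0.30, -0.07, -0.11, 1.88 and -0.50 in D3. All D3 lungs were higher than all D0 lungs, and D3 mouse 19 stood far above the others. The difference was 1.60 ± 0.30 (adjusted p = 0.00285), and without mouse 19 it was 1.17. Malat1, the other abundant nuclear long RNA, differed by 0.37 (adjusted p = 0.0754). Kcnq1ot1, the antisense RNA of an imprinted locus, fell by 0.61, with -0.12 at its second probe.

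Hnrnpdl, a nuclear RNA-binding protein, read -2.02, -1.98, -2.16, -1.98 and -2.01 in D0 and -1.09, -0.97, -0.92, -0.42 and -0.96 in D3 (1.16 ± 0.13; adjusted p = 2.92e-05). The kinases Clk1 (0.88), Clk4 (0.81) and Clk2 (0.64), which phosphorylate SR proteins, all rose with no overlap of the groups. So did the cyclin Ccnl2 (0.84), the helicase Ddx5 (0.78) and the splicing-related protein Pnisr (0.89). For Ccnl2 a dimmer probe gave -0.02, and for Ddx5 the other probes gave 1.07 and -0.19. Son, Srrm1 and Rbm39, scaffold proteins of nuclear speckles and the spliceosome, had differences of 0.49, 0.46 and 0.53 that passed the p threshold and missed the fold threshold. Acin1, which binds spliced RNA, fell by 0.82. Its D0 mean rests on 4 lungs, because the spot of D0 mouse 3 was marked as an outlier and dropped, and its call did not hold when D0 mouse 4, D0 mouse 5, D3 mouse 17 or D3 mouse 19 was dropped. Without D3 mouse 19 the calls of this list came to 6 of 25, and that of Clk2 was among those lost.

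Among the largest decreases were 3 small nuclear and nucleolar RNAs. Rnu1b6, a U1 RNA of the spliceosome, read 0.29 to 0.85 in D0 and -1.85 to -0.11 in D3 (-1.43 ± 0.25; adjusted p = 0.00146). Its Cy3 signal moved by 0.46, and with Cy5 alone the difference was -0.91. Rnu2-10, a U2 RNA, fell by 1.04, while with Cy5 alone its difference was -0.66 (adjusted p = 0.0646). Rnu3b1, a U3 RNA of ribosomal RNA processing, differed by -2.87 ± 0.83 (adjusted p = 0.0348), with D0 mouse 5 at -1.41 and the other D0 lungs at 1.75 to 2.82. Its call was lost without any of 8 single lungs. These RNAs come from families of near-identical copies, so each value may hold several genes, and as a class they lack a poly(A) tail.

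**Figure D3:**
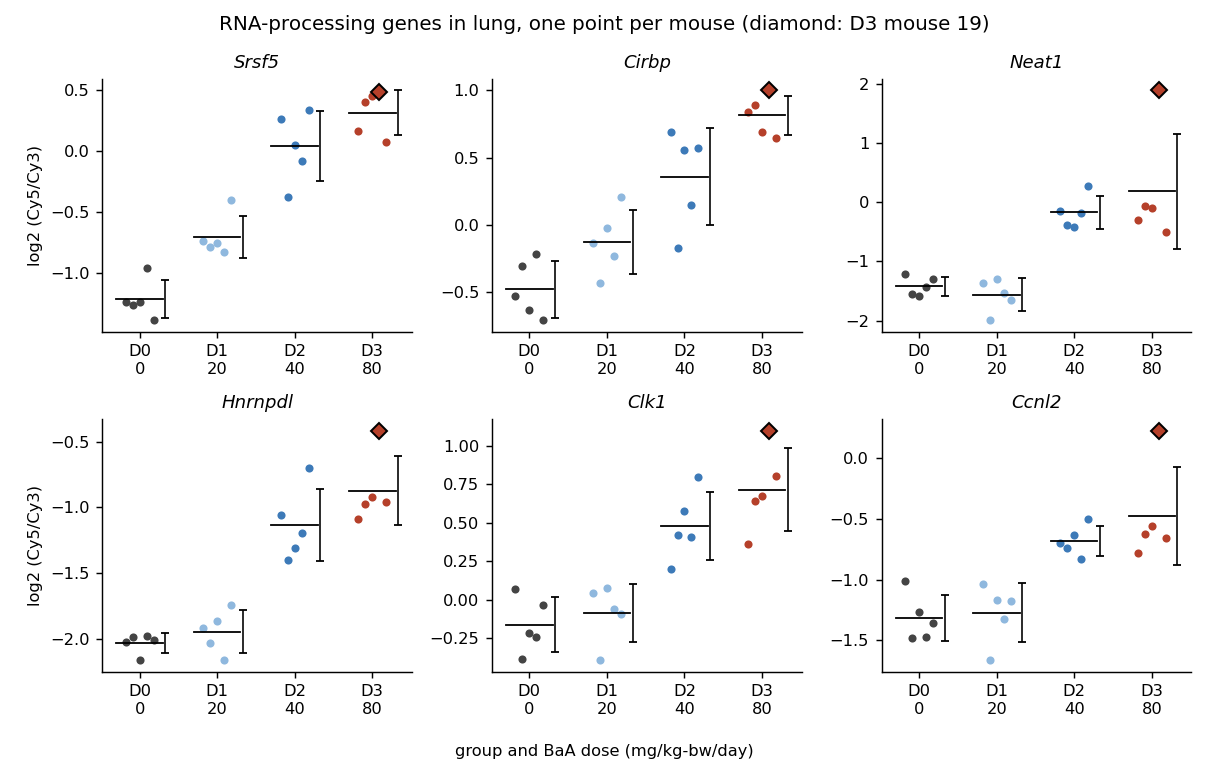
Log2 ratio of lung to reference RNA (vertical axes) for 6 genes of RNA processing in each of the 20 lungs, by group and BaA dose in mg/kg-bw/day, with group means (lines) and 1 SD (bars). The diamond is D3 mouse 19, the highest D3 lung in each panel (1.88 for Neat1). In all 6 panels every D3 lung lies above every D0 lung.

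Among 13 genes of the AhR pathway 1 rose and 0 fell, where 1.80% and 0.468% of all genes did. The differences ran from -1.32 to 0.69 with a median of 0.09, and in 3 of the 13 all D3 lungs lay above all D0 lungs, against 6.76% of all genes. The AhR repressor gene Ahrr differed by 0.59 (adjusted p = 0.00941), and by 2.21 with Agilent's processed signals. Its call held in 10 of 20 alternative settings, fits without 1 lung among them. It did not hold with the authors' log2 ratio table, with normexp background correction or with Cy5 alone. It read -0.75 to -0.39 in D0 and -0.31 to 0.26 in D3, was well above background on 1 of 5 D0 arrays, and lost its call without any of 5 single lungs. Cyp1a1, the enzyme that AhR induces most strongly, read 3.22, 2.89, 2.84, 1.76 and 2.42 in D0 and 1.71, 1.86, 0.79, 1.44 and 0.74 in D3. Its difference was -1.32 with an adjusted p of 0.40, and the D1 lungs ranged from 0.73 to 6.87. Cyp1b1 was higher in all D3 lungs (-1.01 to -0.14) than in all D0 lungs (-1.49 to -1.06), a difference of 0.69 with an adjusted p of 0.201. Nqo1 (-0.22) and Tiparp (0.16), further targets of AhR, did not pass. None of the 20 Nrf2 antioxidant genes and none of the 24 xenobiotic enzymes of lung passed (0 in each), with medians of -0.02 and 0.03. At an unadjusted p under 0.05 the counts were 2 and 3.

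Among 29 p53 targets 1 rose and 1 fell, where 1.80% and 0.468% of all genes did, and the median was 0.01. Ddb2, which recognises ultraviolet and bulky lesions in nucleotide excision repair, read -1.46, -1.70, -1.66, -1.54 and -1.69 in D0. In D3 it read -0.83, -1.01, -0.92, -0.46 and -0.96, above every D0 lung (0.77 ± 0.12; adjusted p = 0.000734). It was the 1 gene of 29 of the repair list that passed, where 2.27% of all genes did. Xpa (0.43) and Xab2 (0.39) were past the p threshold alone. Cdkn1a, the p21 inhibitor of the cell cycle, fell by 0.67 (adjusted p = 0.0129) with no overlap, while a dim probe gave -0.07. Mdm2 (0.12), Ccng1 (0.03) and Bax (0.39) did not pass both thresholds. Of 26 cell cycle and replication genes only Mcm6, a subunit of the replicative helicase, passed (1.00, adjusted p = 0.0241), where 2.27% of all genes did. Its groups overlapped, and its call was lost without any of 4 single lungs. Mcm7 (0.45) and Mcm4 (0.34), of the same helicase, passed the p threshold alone. Mki67 (0.32) and Top2a (-0.07), markers of dividing cells, had adjusted p of 0.387 and 0.838. None of 23 immediate early genes and none of 16 Bcl2 family genes passed by limma (0 in each, with 7 and 4 at an unadjusted p under 0.05).

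**Figure D4:**
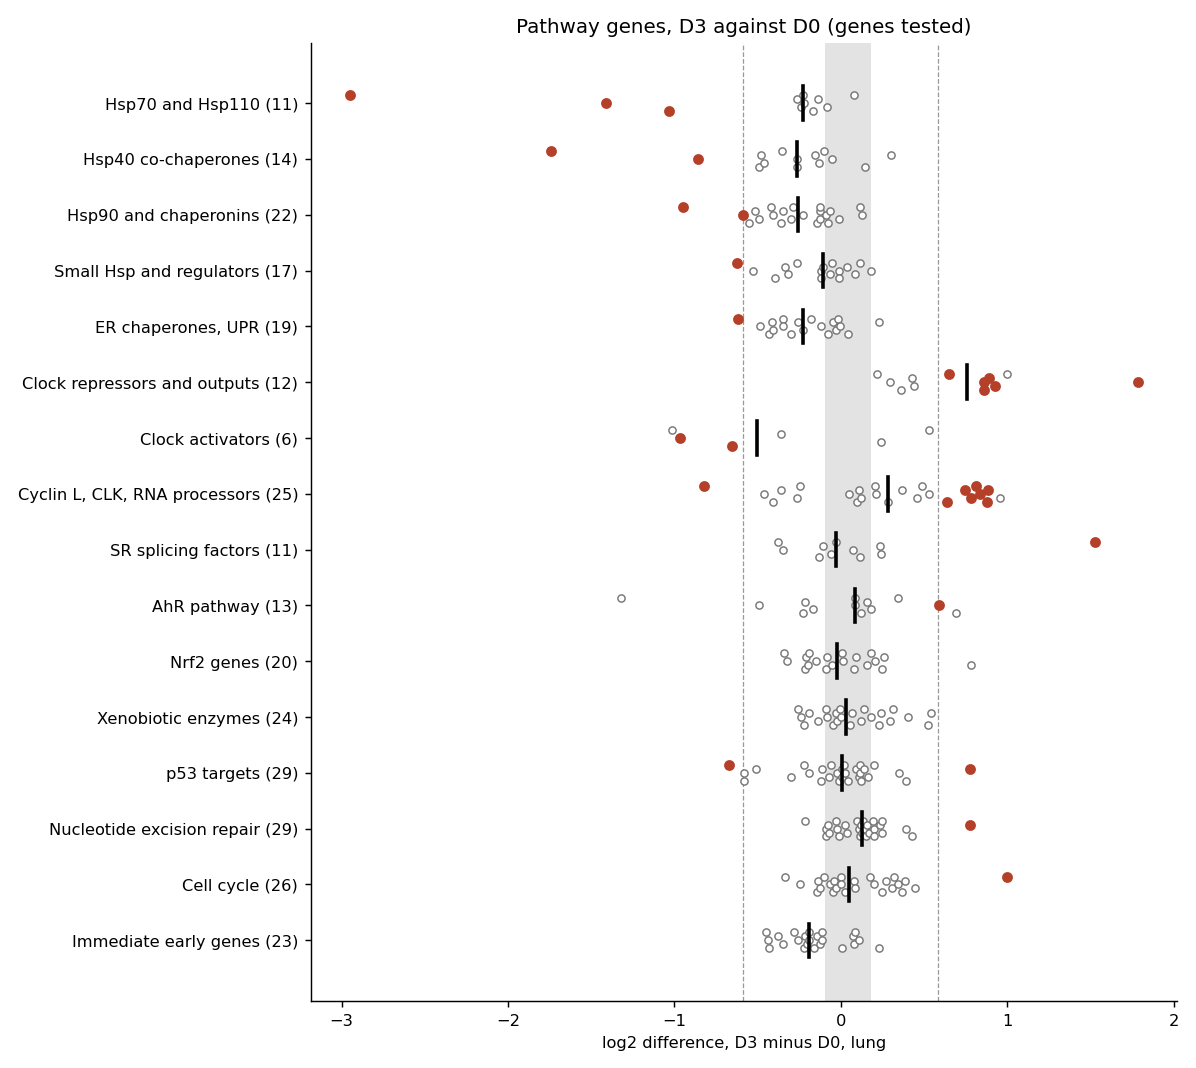
Log2 difference between D3 and D0 in lung (horizontal axis) for the genes tested of 16 pathway lists. Filled points passed both thresholds, open points did not, thick vertical lines are list medians, dashed lines mark 1.5-fold and the grey band lies between the quartiles of all genes. Chaperone genes reach furthest to the left (Hspa1a, -2.95) and all 12 clock repressors and outputs lie to the right of 0.

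Of 23 B cell markers 8 rose at D3 and 0 fell, where 1.80% of all genes rose, 22 differences were positive, and the median was 0.50. Of 22 T cell markers 2 rose, 21 differences were positive, and the median was 0.41. Over all genes 8435 of 14532 differences were positive. In whole lung, more cells of a type and more RNA per cell cannot be told apart. The mean over the B cell list was 0.86 to 1.27 in D0 and 1.37 to 1.61 in D3, and it was 1.47 to 1.97 in D2.

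Cxcr5, which guides B cells into follicles, read 2.56, 1.61, 2.06, 1.29 and 1.92 in D0 and 2.67, 3.11, 2.87, 2.64 and 2.69 in D3, without overlap (0.91 ± 0.18; adjusted p = 0.0031). Cd79b, a chain of the receptor complex, differed by 0.80 (0.00385). Fcer2a, Bank1, Spib, Tnfrsf13c and H2-Ob, a receptor for IgE, a signalling adaptor, a transcription factor, the receptor for BAFF and a chain of the antigen-loading complex, differed by 0.62 to 0.68. Cd79a (0.27) and Ms4a1 (0.37), as defining as these, did not pass. None of 7 plasma cell markers passed by limma (0, with 3 at an unadjusted p under 0.05; median 0.09). Without D0 mouse 4 the calls of the B cell list came to 4 of 23 and without D3 mouse 17 to 5. With Agilent's processed signals they came to 3, with Cy5 alone to 4 and with the authors' log2 ratio table to 8. Spib kept its call in only 2 of the 10 fits without 1 lung.

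Btla, an inhibitory receptor of B and T cells, is on no marker list here and read 2.27, 1.49, 1.61, 1.51 and 1.29 in D0 and 3.16, 3.15, 2.53, 3.11 and 2.96 in D3 (1.35 ± 0.23; adjusted p = 0.00141). The T cell genes that rose were Ccr7, a homing receptor, by 0.68 and Skap1, an adaptor of the T cell receptor, by 0.61. Both calls were lost without D3 mouse 17, the lung with thymocyte markers, and the T cell calls then came to 0 of 22. Without D0 mouse 2 they came to 0 as well. The T cell list mean was 1.54 in D3 mouse 17, 0.31 to 0.47 in the other D3 lungs and -0.04 to 0.30 in D0. Cd8b1 (0.93) and Cd3d (0.61) did not pass, with adjusted p of 0.119 and 0.115. Clec2d, a lectin ligand of natural killer cells, differed by 1.20 (adjusted p = 0.000447), without overlap. No macrophage, neutrophil or natural killer cell marker passed by limma (0 of 16, 10 and 9, with 2, 0 and 0 at an unadjusted p under 0.05). Of 26 chemokines and cytokines only Ccl11, the eosinophil chemokine eotaxin, passed (0.72), where 2.27% of all genes did. Its call was lost without any of 6 single lungs.

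Of 14 type II alveolar markers 2 rose, against 1.80% of all genes. They were Hc, complement component C5, which differed by 0.95 (adjusted p = 0.00378), and Etv5, a transcription factor that maintains these cells, which differed by 0.64 (0.00478). Sftpc (0.09), Sftpb (-0.08) and Abca3 (0.05), the surfactant machinery, did not pass. Of 9 type I alveolar, 9 club cell, 16 fibroblast and 8 smooth muscle markers 0 passed by limma, with 0, 0, 2 and 1 at an unadjusted p under 0.05. Egfl7, secreted by endothelium, rose by 0.66 as 1 of 16 endothelial markers, where 1.80% of all genes rose. Ccdc39, needed for ciliary motility, rose by 0.60 as 1 of 13 ciliated cell markers. The calls of Etv5 and Ccdc39 were lost without D0 mouse 5, in which Ccdc39 was not well above background.

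Mesothelial markers, of the cells that cover the lung, all read lower, with a median of -1.58, but only Lrrn4 passed (-1.71 ± 0.49; adjusted p = 0.0329). Lrrn4 read 1.58, 0.50, -0.51, -0.67 and 0.12 in D0 and -2.15, -2.15, -1.28, -1.59 and -0.33 in D3, and the groups overlapped. It was well above background on 4 of 5 D0 and 2 of 5 D3 arrays, and Agilent's processed signals gave -3.27. The list mean ran from -1.51 to 1.35 in D0 and from -2.04 to -0.67 in D3, and the call was lost without any of 7 single lungs, D0 mouse 5 and D3 mouse 17 among them. Upk3b (-1.67), Wt1 (-1.58) and Msln (-1.28) had adjusted p of 0.0762, 0.105 and 0.113.

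**Figure D5:**
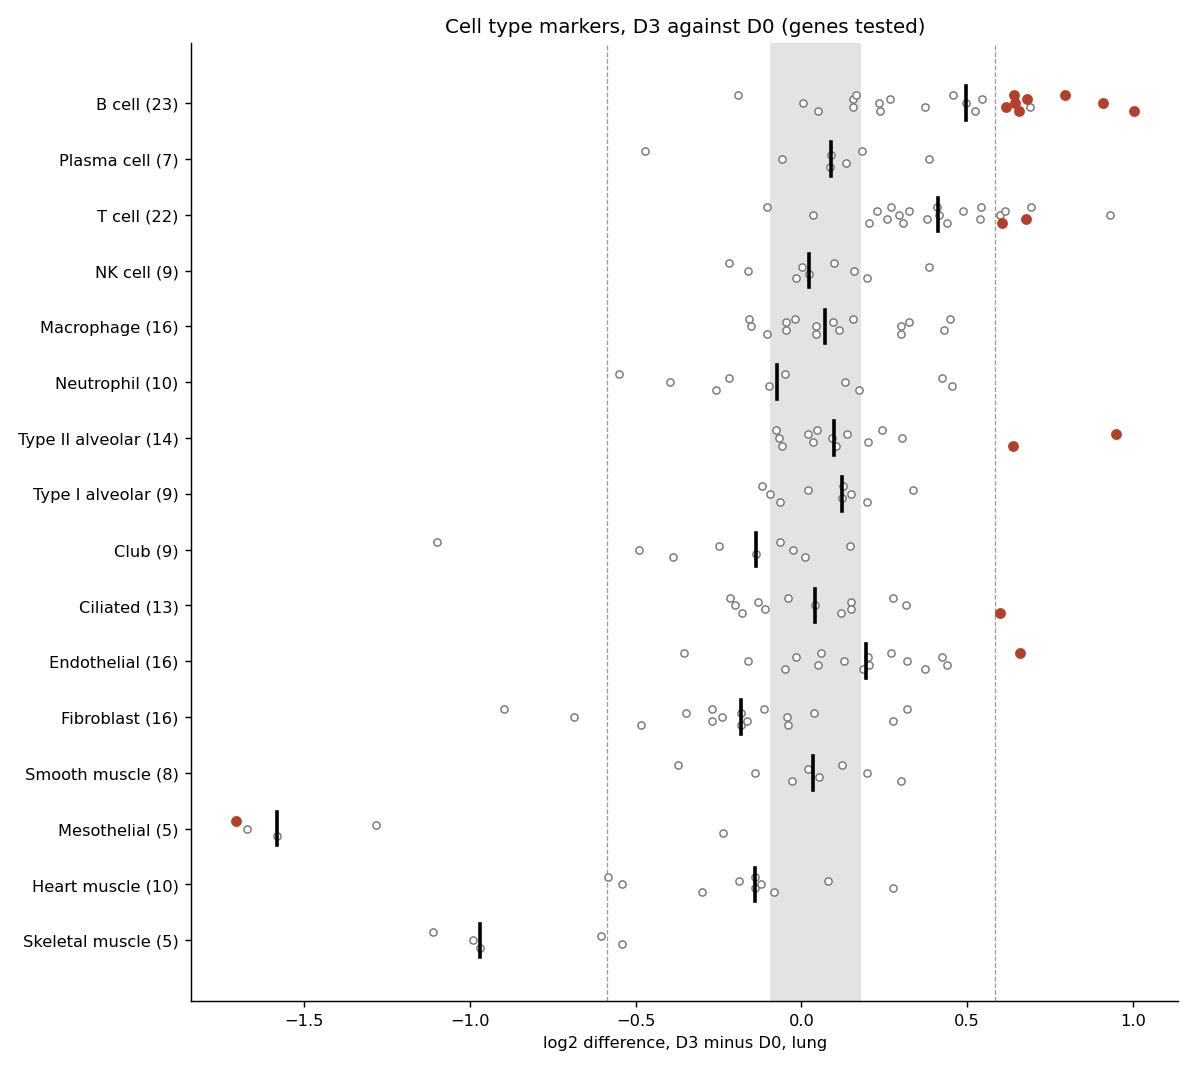
Log2 difference between D3 and D0 in lung (horizontal axis) for the genes tested of 16 cell type marker lists, with symbols as in the plot of pathway genes. The medians of B and T cell markers lie to the right of the band of all genes (0.50 and 0.41) and that of mesothelial markers to the left (-1.58). Single B and T cell markers reach down to -0.19 and -0.10.

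Other genes stood among the largest changes without belonging to a list. Fabp1, a fatty acid carrier best known from liver and intestine, differed by 1.28 (adjusted p = 0.00708), with D0 at 3.78 to 4.81 and D3 at 5.04 to 6.20. Calcr, the calcitonin receptor, differed by 1.15, Pdia2, a protein disulfide isomerase, by 1.16, and Ttll6, a tubulin polyglutamylase, by 1.11. Pdia2 was not well above background in D0 mouse 4 and D0 mouse 5, nor Calcr in D0 mouse 4. With Cy5 alone and with Agilent's processed signals Pdia2 differed by 0.83 and 2.20, Calcr by 0.74 and 1.72 and Fabp1 by 1.01 and 0.66. Lime1, a lymphocyte adaptor, and Sap25 and Igflr1 differed by 1.15, 1.15 and 1.14, each without overlap. Among the decreases, Thbs1, the matrix protein thrombospondin 1, differed by -1.21 (adjusted p = 0.0019) and Kitl, the ligand of the receptor Kit, by -0.98 (0.000947), both without overlap. C2, of the complement cascade, differed by -1.02 with overlapping groups, and its call was lost without any of 5 single lungs. Among 24 interferon-stimulated genes Xaf1 alone passed (-0.63, list median -0.25), where 2.27% of all genes did. Its call was lost without any of 6 single lungs.

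The high dose was also set against the lower doses, with the same D3 lungs in each comparison. Between D3 and D2 no probe passed (0 of 30399 by limma; 1147 had an unadjusted p under 0.05, and 1 passed with Agilent's processed signals). The difference from D2 was -0.32 ± 0.31 (SE) for Hspa1a, 0.38 ± 0.34 for Dbp and 0.28 ± 0.13 for Srsf5. Between D3 and D1, 164 genes passed (1.13%). Hspa1a was lower at D3 than at D1 by 1.37 (D1 mean 1.11, D3 mean -0.27; adjusted p = 0.0186), Srsf5 was higher by 1.02 (0.000441), Neat1 by 1.74 (0.00393) and Hnrnpdl by 1.07 (0.000398).

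The D3 effect in lung was set against that in liver and forestomach of the same mice by an interaction test (D0 and D3 held 5 and 4 livers and 4 and 5 forestomachs). The lung effect differed from the liver's in 266 of 11616 genes (2.29%) and from the forestomach's in 38 of 13879 (0.274%). Among the named genes it differed from the liver in 25 of 51 that could be tested and from the forestomach in 9 of 61. Most of the RNA processing genes named above were among those that differed from liver. Neat1, Hnrnpdl and Clk1 were among those that differed from forestomach. The named genes were chosen by their lung difference, which the interaction also holds. Their counts therefore cannot be set beside the shares over all genes. Against liver, Neat1 differed by 3.78, Ccnl2 by 2.14, Pnisr by 1.68, Hnrnpdl by 1.65 and Clk1 by 1.31. For each of these the lung effect was smaller (1.60 for Neat1 and 0.84 for Ccnl2), so the estimate in liver was negative. The liver effect alone was not tested. Of the 25 genes of the cyclin L, CLK and nuclear RNA processing list tested in lung, 11 differed from liver. Over all genes that passed the filter in both tissues 2.29% did, and not all of the 25 need have passed it in liver. The list was chosen with earlier results of these data known. Dnaja1 (-1.61; adjusted p = 0.000448) and Chordc1 (-0.90; 0.0141) differed from liver, and Hspa1a (-1.86; adjusted p of 0.0502, just above the threshold), Hspa8 (-0.62; 0.111) and Dnajb1 (0.14; 0.877) did not pass. For Dbp the interactions were 0.54 ± 0.68 with liver and -0.04 ± 0.68 with forestomach (SE), and neither passed. Against forestomach, Hnrnpdl (1.16), Lime1 (1.15), Sap25 (1.13), Ddb2 (0.86) and Clk1 (0.90) differed, as did Clec2d (1.55).

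Of the 67 named genes 40 kept their call without any 1 of the 10 lungs compared. With slide as a block 67 of 67 kept it, and within the 3 slides the sign was the same in all for the 66 genes with a value in each. The genes had been chosen by their difference on these same arrays, so this agreement was largely fixed in advance. Of D0 and D3, slide 2 held only mouse 3 and mouse 19. When each array was centred on its median in place of loess, 0 probes passed, and with median centring and slide as a block 1206 did (1175 higher, 31 lower), with the median of all probes moved from 0.003 to 0.147. In the Cy3 channel, which held the same reference RNA on every array, 9 of 30399 probes passed (0.0296%), all lower, 3 of which were among the 572 probes that passed in the comparison.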

How the data were processed

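RNA of 58 mouse tissues was measured on Agilent 2-colour arrays. Per the file headers, the deposited intensities came from Feature Extraction 10.7.3.1, and a log2 ratio table deposited by the authors was used here as an alternative (r of 0.995 to 0.998 with the values used). From the deposited median intensity of each channel, without background subtraction, log2(Cy5/Cy3) was normalised by loess within each array, as the study did, after control and outlier spots (0.480% on lung arrays) had been left out. Repeated spots were averaged. A probe was tested if its Cy5 signal was well above background on 4 or more of the 20 lung arrays, which left 30399 of 55681. Dose means were fitted with limma 3.58.1 (R 4.3.3) over the 20 lung arrays, p-values were adjusted by Benjamini-Hochberg over all probes, and calls required an adjusted p of at most 0.05 and 1.5-fold, the study's thresholds. The study's own software for the model was not used, and residual shuffling, as in it, was an alternative. RefSeq accessions gave a symbol to 26413 probes (GRCm38.p6), and the brightest probe stood for a gene.

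The text names the 14 genes with the largest increase, the 14 with the largest decrease, every called gene of 43 lists and defining members that did not pass. Further genes on lists are given as values, and a few named genes that enter the counts are not reported here. Members and lists were chosen with earlier results of these data known. Each sample was a separate mouse. Array number and signal limit the precision: 50.3% ± 4.44 (SD, n = 5) of spots were well above background in Cy5 at D0 and 52.0% ± 3.16 at D3 (exact permutation test, two-sided, p = 0.476; the smallest possible is 0.00794). The 3 slides each held D0 and D3 arrays, and slide as a block was an alternative. The permutation left slide out. On slide 3 the shares were 46.8% and 44.4% at D0 (mouse 5 and mouse 4) and 48.5% and 48.9% at D3. On slide 1 they were 53.0% and 53.9% at D0 and 53.0% and 55.2% at D3, and on slide 2 53.6% and 54.6%. Across tissues the labels give the same mouse a single number. Deviations of lung and liver of a mouse correlated at a median of 0.125 over 19 pairs, and those of lung and forestomach at 0.093. The procedure was tested on simulated data.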

Additional observations from a re-analysis of the deposited data

Results flagged for a closer look

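In 134 groups of 5 lungs (4 for Acin1 in D0), 11 held a value far from the others by Dixon's criterion, and chance gives about 1 in 20. In 6 of the 11 the lung was D3 mouse 19. Its log2 ratios were 1.88 for Neat1 (the other D3 lungs -0.50 to -0.07), -0.42 for Hnrnpdl (-1.09 to -0.92), 0.85 for Sap25 (-0.27 to 0.04), 0.23 for Ccnl2 (-0.78 to -0.56), -0.15 for Clk2 (-1.02 to -0.78) and 1.16 for Pnisr (0.07 to 0.29). D3 mouse 16 was low for Nr1d2 (1.504, others 1.83 to 1.94), and D3 mouse 17, which held thymocyte markers, was high for Skap1 (0.55, others -0.63 to -0.37). Among D0 lungs, mouse 5 was low for Rnu3b1 (-1.41, others 1.75 to 2.82) and Ccdc39 (0.20, others 0.71 to 0.87), and mouse 3 for Hnrnpdl (-2.16, others -2.02 to -1.98).

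The effect of the high dose differed between lung and liver by the interaction test in genes that include those below, given as the log2 effect in lung minus that in liver. RNA processing genes were more positive in lung: Neat1 by 3.78, Ccnl2 by 2.14, Pnisr by 1.68, Hnrnpdl by 1.65, Clk1 by 1.31, Srsf5 by 1.03, Clk2 by 0.98, Clk4 by 0.95, Cirbp by 0.87 and Ddx5 by 0.76. For Neat1 and Ccnl2 the lung effect alone was 1.60 and 0.84, so the estimate in liver was negative, which was not tested alone. For Srsf5 and Cirbp the lung effect alone was larger than the difference (1.53 and 1.29). The differences of Igflr1, Lime1, Clec2d and Sap25 were 1.90, 1.87, 1.57 and 1.53, and those of Hc, Ddb2, Per3 and Egfl7 were 1.19, 1.00, 0.96 and 0.66. More negative in lung were the small nuclear RNAs Rnu1b6 (-2.19) and Rnu2-10 (-1.53), the chaperone genes Dnaja1 (-1.61) and Chordc1 (-0.90), Cacybp (-1.05) and Kitl (-0.97). For Rnu1b6 the lung effect alone was -1.43, so the estimate in liver was positive, which was not tested alone.

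Against forestomach the genes that differed included these, each more positive in lung: Neat1 (1.87), Clec2d (1.55), Igflr1 (1.18), Hnrnpdl (1.16), Lime1 (1.15), Sap25 (1.13), Clk1 (0.90) and Ddb2 (0.86). The Cy3 channel, which the comparisons use only as the reference, held 9 probes that differed between D3 and D0 arrays.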

How the results depend on the processing

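The 572 probes called between D3 and D0 (400 higher, 172 lower) became 0 (0 and 0) under median centring, 1125 (792 and 333) with Agilent's processed signals, 1206 (1175 and 31) under median centring with slide as a block, and 2774 (1768 and 1006) without a minimum fold; leaving out 1 replicate gave 394 to 690 (286 to 477 and 108 to 216), with 112 lower without D3 mouse 17 and 108 without D3 mouse 19. The authors' table gave 532, normexp 529, slide as a block 610, no filter 543, a filter on all 20 arrays 537, the D0 and D3 arrays alone 519, Cy5 alone 427 and residual shuffling 587. For D3 against D2, Agilent's signals gave 1 call in place of 0, and leaving out a replicate gave 0 each time. For D3 against D1 the 295 calls became 0 under median centring, 448 with Agilent's signals, 1012 without a minimum fold and 158 to 388 without 1 replicate (158 without D3 mouse 19, 181 without D1 mouse 7). The 452 calls of lung against liver became 10 under median centring and 345 to 483 without 1 replicate, and the 73 against forestomach 169 with slide as a block, 0 under median centring and 41 to 98 without 1 replicate (48 without D3 mouse 17, 41 without D3 mouse 19). No paired analysis was possible because D3 and D0 lungs share no mouse number; with the mouse as a replicate block, the tissue contrasts gave 484 and 81 calls. The 9 Cy3 probes ranged from 7 to 10 without 1 replicate. The share of spots above background differed by 1.70 percentage points (0.212 to 2.60 without 1 replicate) and reversed in Cy3 (-0.283). Other probes reversed 2 genes, Ccnl2 (-0.019) and Ddx5 (-0.19). Calls of the 67 named genes held for 67 with slide as a block, 63 in the authors' table, 55 with Agilent's signals, 49 with Cy5 alone, 52 under median centring with slide as a block and 0 under median centring alone. Under median centring 0 of the 67 changed sign, and the log2 differences were -2.45 for Hspa1a, 1.95 for Dbp and 1.71 for Srsf5. The cause was not tested.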
